A study of Mus musculus with 6 samples.

Results

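The mannosyltransferases described here are the 4 Tmtc genes (Tmtc1 to Tmtc4) and the 4 Dpy19l genes (Dpy19l1 to Dpy19l4) of the mouse. They are 8 of the 54532 named genes of the deposited table, chosen by gene symbol. The family was put together with the Gmppb-KO against wild-type differences of these same libraries known, so its own differences are given as a description. No p-value is given for a member, intervals show only the precision of a value, and where a member stood on a threshold of the transcriptome-wide fit is stated without support being drawn from it. Of the 8 genes, 6 had enough reads to enter the fit across the transcriptome. Tmtc1 and Dpy19l2 did not.

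The TMTC proteins are multispanning enzymes of the endoplasmic reticulum that attach single O-linked mannoses to the extracellular domains of cadherins and protocadherins, the adhesion proteins of cell junctions. The DPY19L proteins include the C-mannosyltransferases, which bind mannose by a carbon-carbon bond to tryptophans of thrombospondin type 1 repeats and type I cytokine receptors. Both take mannose from dolichol-phosphate mannose, a lipid-linked sugar made from GDP-mannose by the DPM complex. GDP-mannose is made by GMPPB, the product of the gene targeted in this study, which asked how that gene bears on muscle development.

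RNA was sequenced from C2C12 cells, an established mouse myoblast line, in 3 Gmppb-KO and 3 wild-type libraries. For the Gmppb-KO cells, CRISPR/Cas9 plasmids with guides to exons 1 and 5 of Gmppb were transfected, puromycin (4 µg/ml) was used for selection, and monoclonal cells were grown out. Wild-type cells are labelled as untreated, and both genotypes were cultured for 2 days. How many clones the 3 Gmppb-KO libraries represent is not stated. The labels also do not call the replicates separate cultures, so the spread behind each p-value is that between libraries and may be technical.

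Libraries held 17616250 to 18566759 reads on named genes in Gmppb-KO and 16011021 to 17964344 in wild-type cells. Levels are CPM (reads of a gene scaled to a common library size, after TMM normalization) or, between genes of different length, the authors' FPKM. Gmppb itself had 20.6, 16.0 and 13.0 CPM in Gmppb-KO libraries, against 18.0, 20.9 and 23.9 CPM in wild-type libraries (edgeR adjusted p = 0.459), so its transcript level does not check the labels. Myod1, a master regulator of the muscle lineage, had 0.326, 0.56 and 0.471 CPM in Gmppb-KO libraries, against 160, 163 and 152 CPM in wild-type libraries. Marker genes are counted as higher or lower where the edgeR adjusted p was under 0.05. Of 7 myoblast markers, 4 were lower in Gmppb-KO cells and 0 higher by that threshold. Their summed level was 2480 to 4400 CPM there and 4370 to 6080 CPM in wild-type cells. Most of these sums was Des, which was not called (means 3170 CPM in Gmppb-KO and 4250 CPM in wild-type cells, edgeR adjusted p = 0.497). Among the uncalled markers, Myf5, an early myogenic factor, had 29.1, 48.6 and 93.6 CPM in Gmppb-KO libraries. In wild-type libraries it had 26.6, 29.4 and 12.9 CPM (edgeR adjusted p = 0.168). Of 8 fibroblast markers, 3 were higher and 2 lower, with Lum at 0 in both groups. Their sums were 1260 to 1870 CPM in Gmppb-KO and 228 to 308 CPM in wild-type cells. Most of these sums was Col1a1, with means of 1480 CPM in Gmppb-KO and 154 CPM in wild-type cells. Pdgfrb, 1 of the 2 lower markers, averaged 30.7 and 91.6 CPM in these groups. Adipocyte markers summed to 37.7 to 76.2 CPM in Gmppb-KO and 17.4 to 18.4 CPM in wild-type cells, with Adipoq and Plin1 at 0 in both; 2 of the 5 were higher. Epithelial markers summed to 21.8 to 55.4 and 7.66 to 14.8 CPM in these groups, with 1 of 5 higher, 1 lower and Epcam at 0 in both. Most of these sums was Krt14, the higher marker, with means of 41.9 CPM in Gmppb-KO and 9.89 CPM in wild-type cells. Neural markers summed to 33.5 to 46.4 CPM in Gmppb-KO and 235 to 244 CPM in wild-type cells, with 3 of 5 lower and Sox10 at 0 in both. Endothelial markers reached at most 0.848 CPM in Gmppb-KO and 0.415 CPM in wild-type cells, with Pecam1 and Cdh5 at 0, and leukocyte markers at most 4.14 and 5.46 CPM in these groups, with Itgam at 0. What these differences contribute to the values below was not tested.

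Gmppb-KO replicate 3 stood apart across the transcriptome. Among the 2581 tested genes as long as the tested family members (6350 to 11367 bases), its level exceeded the mean of Gmppb-KO replicates 1 and 2 by a median of 0.60 on the log2 scale. Among the 9429 shorter genes the median was -0.14. Wild-type replicate 3 differed from the mean of wild-type replicates 1 and 2 by medians of 0.28 and -0.04 in these sets. Among the tested members this wild-type difference ran from -0.20 for Dpy19l4 to 1.6 for Tmtc2, which had 1.6 in Gmppb-KO replicate 3 too. Gmppb-KO replicate 3 was the highest Gmppb-KO library for 71.3% of the first set and 34.9% of the second, and for 45.5% of all tested genes. Replicate 3 was the highest Gmppb-KO library for 6 of the 6 tested members. Fold changes of the tested members, and of some other genes, are therefore also given without it.

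**Figure D1:**
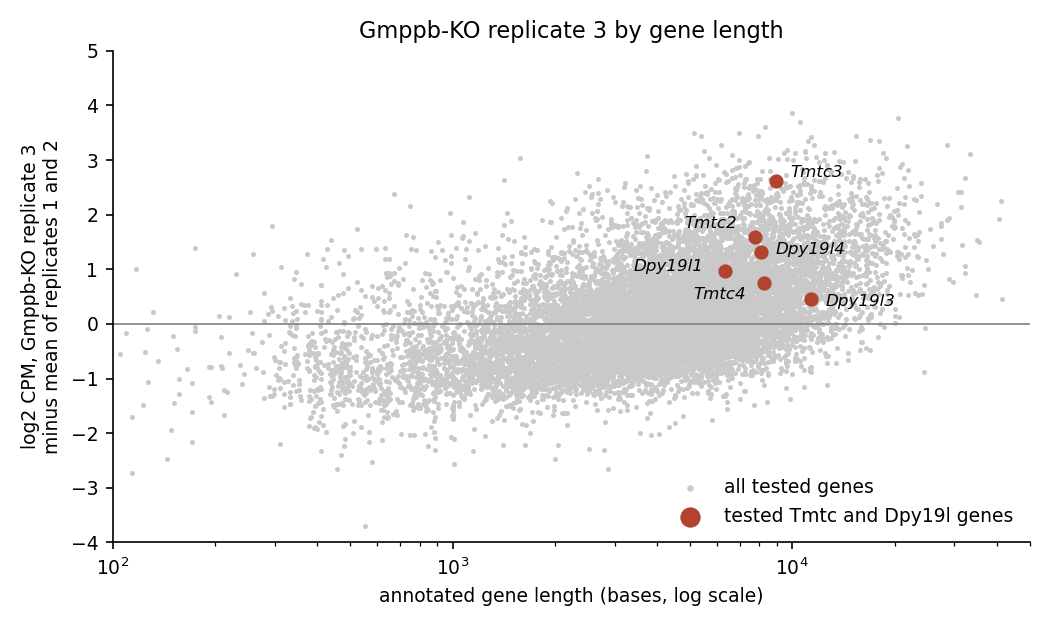
Gmppb-KO replicate 3 against gene length. The x axis is the annotated gene length in bases (log scale) and the y axis the log2 CPM of replicate 3 minus the mean of Gmppb-KO replicates 1 and 2; grey points are all 12786 tested genes and red points the 6 tested Tmtc and Dpy19l genes, which lie between 0.45 for Dpy19l3 and 2.62 for Tmtc3.

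Tmtc2 was nearly silent in wild-type cells and clearly transcribed in all Gmppb-KO libraries, and it was the member with the largest difference. Every Gmppb-KO library was also above the wild-type range for Tmtc4. Tmtc3 and Dpy19l4 stood above wild-type levels in Gmppb-KO replicate 3 and at or near the wild-type level in Gmppb-KO replicates 1 and 2. Dpy19l1 and Dpy19l3 overlapped between genotypes, and Tmtc1 and Dpy19l2 were at or near 0 throughout. In the edgeR fit over 12786 genes, 715 (5.59%) differed at an adjusted p under 0.05, 297 higher (2.32%) and 418 lower (3.27%) in Gmppb-KO cells. Of the 6 tested members, 1 was past that threshold, Tmtc2, on the higher side, and it was also the 1 member called by limma voom, which called 5.53% of genes, 2.24% higher. The Gmppb-KO and wild-type libraries did not overlap for 26.1% of all tested genes and for 2 members, Tmtc2 and Tmtc4, both higher in Gmppb-KO cells as were 13.1% of all tested genes. The median log2 fold change was 0.89 over the tested members and 0.11 over all tested genes; since the choice of family used this contrast, nothing is read from these counts.

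**Figure D2:**
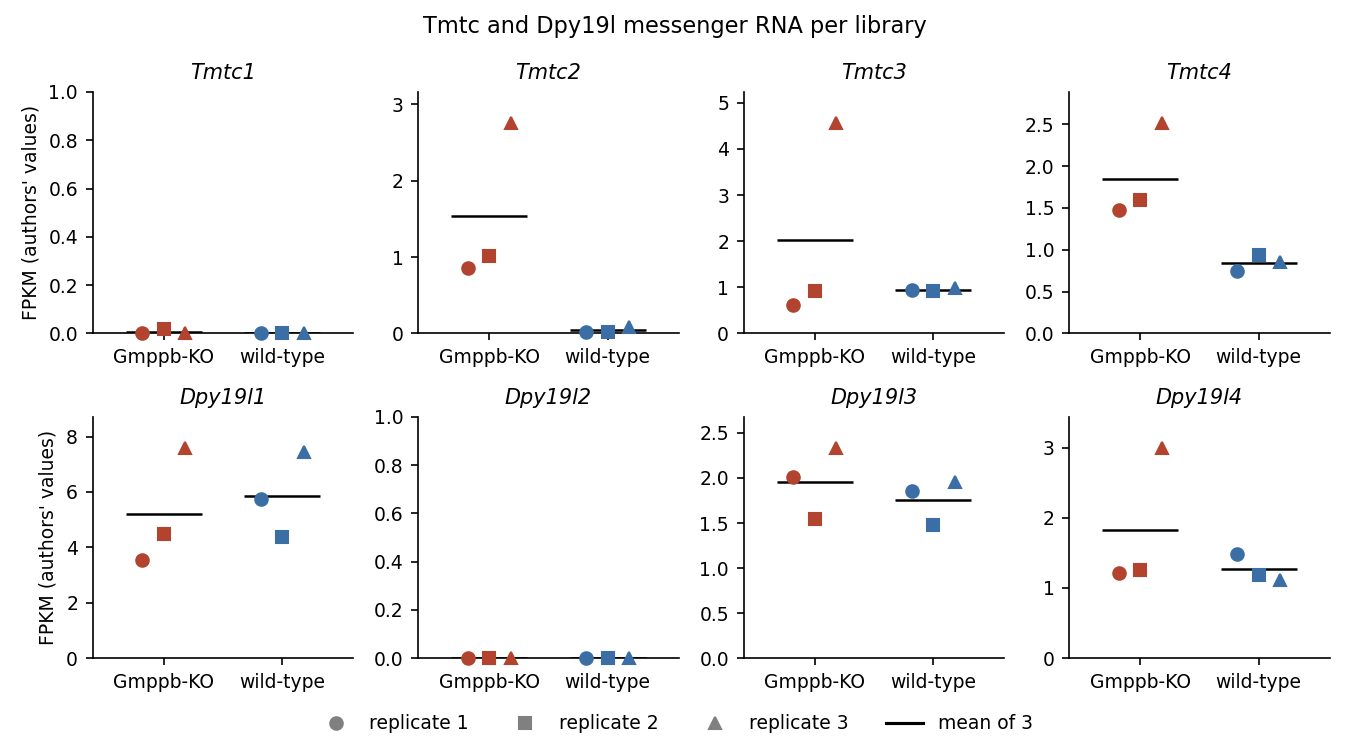
Level of each Tmtc and Dpy19l gene in each library. The y axis is the authors' FPKM, with its own scale in each panel; circles, squares and triangles are replicates 1, 2 and 3 of Gmppb-KO (red, left) and wild-type cells (blue, right), and bars are means of 3. Tmtc2 (Gmppb-KO mean 1.54, wild-type mean 0.0437) and Tmtc4 (1.85 and 0.844) show no overlap, and the Tmtc3 and Dpy19l4 means in Gmppb-KO cells are drawn up by replicate 3.

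Tmtc2 (ENSMUSG00000036019) lies on the minus strand of chromosome 10 at 105187663 to 105574451 in build mm10, with 7779 bases of annotated exon. Human TMTC2 is associated with an inherited hearing loss and has been described as a binding partner of a calcium pump of the endoplasmic reticulum. It had 123, 144 and 477 reads in Gmppb-KO libraries, against 3, 2 and 12 reads in wild-type libraries. As CPM these were 6.68, 8.06 and 22.5 in Gmppb-KO and 0.178, 0.135 and 0.702 in wild-type cells. Every Gmppb-KO library was above every wild-type library, and 2 of the 3 wild-type counts were at or under the limit of 3 reads below which a gene is not told apart from 0. Means were 12.4 ± 8.74 CPM in Gmppb-KO and 0.338 ± 0.315 CPM in wild-type cells (SD, n = 3 each). The log2 fold change was 5.15 ± 0.76 (SE; 95% interval 3.41 to 6.88), or 35.4-fold. Without Gmppb-KO replicate 3 it was 4.35, and over 14 alternative settings it ran from that value to 6.14, which was reached without wild-type replicate 3.

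The sequence just before the start of Tmtc2 is shown because this was the member nearly silent in one genotype and transcribed in the other. It covers the 250 bases before the RefSeq start, chr10:105574480-105574729 on the minus strand in GRCm38.p6 (the assembly behind mm10), with the only match to a searched motif, the GC box GGGCGG, in capitals.
Tmtc2: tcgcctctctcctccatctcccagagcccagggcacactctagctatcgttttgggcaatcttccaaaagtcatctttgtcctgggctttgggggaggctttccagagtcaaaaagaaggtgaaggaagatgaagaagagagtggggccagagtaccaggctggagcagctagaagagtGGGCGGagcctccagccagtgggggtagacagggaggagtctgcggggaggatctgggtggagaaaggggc
Searched on both strands, this window held 1 GC box, present in 32.7% of 32851 RefSeq promoter windows of the same length. It held none of CCAAT (in 33.8% of windows), the E-box CANNTG (66.2%) or its form CAGCTG (13.0%), a subset of CANNTG that muscle regulatory factors are known to bind. A missing match says only that these letters are not in the window. GC content was 57.2%, against a median of 52.4% over the windows.

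Within 6 Mb of the Tmtc2 start, 4 other tested genes passed the edgeR threshold, each higher in Gmppb-KO cells. Over all tested genes 5.59% passed, 2.32% higher. The window was chosen after values were seen, so nothing is read from this number. Gm15663, a non-coding gene on the opposite strand, starts 498 bases inside the Tmtc2 start and runs across the promoter window. It had 34, 40 and 60 reads in Gmppb-KO libraries, against 1, 2 and 0 reads in wild-type libraries. The ratio of summed reads, scaled by the summed normalized library sizes of each group, was 37.9 (counting interval 12.7 to 186; edgeR adjusted p = 0.00522). Its exons share 165 bases with those of Tmtc2, and the library kit named in the labels does not mark strand, so reads there cannot be assigned to either gene.

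Beyond the 3′ end of Tmtc2, toward lower coordinates, the next tested genes were the long non-coding RNA Gm47223, 2.07 Mb from the Tmtc2 start, and the processed pseudogene Gm47220, at 2.01 Mb. Gm47223 had 131, 158 and 190 reads in Gmppb-KO libraries, against 1, 0 and 1 reads in wild-type libraries. The ratio of summed reads, scaled in the same way, was 203 (counting interval 56.0 to 1683; edgeR adjusted p = 0.000371). Gm47220 had 35, 64 and 54 reads in Gmppb-KO libraries and 0 in every wild-type library, which makes it at least 43.3-fold higher against a floor of 3 reads over the wild-type group (edgeR adjusted p = 0.00442). Both overlap the annotated span of another non-coding gene, and a pseudogene can take reads of its parent gene, so their counts are uncertain. Slc6a15, a neutral amino acid transporter at 2.21 Mb, had 45, 38 and 84 reads in Gmppb-KO libraries, against 1, 0 and 3 reads in wild-type libraries. Its log2 fold change was 5.02 ± 0.74 (SE; edgeR adjusted p = 0.00636).

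On the 5′ side the nearest tested genes were Ccdc59 and Mettl25, at 0.267 Mb, and neither passed the threshold. Ccdc59 averaged 31.1 ± 5.67 CPM in Gmppb-KO and 24.6 ± 1.92 CPM in wild-type cells (SD, n = 3 each; log2 fold change 0.34 ± 0.22 SE; edgeR adjusted p = 0.399). Mettl25, a methyltransferase-like gene, had a log2 fold change of 0.07 ± 0.34 (SE; edgeR adjusted p = 0.915). The 4 neighbours past the threshold have starts within 2.21 Mb of the Tmtc2 start. Apart from Tmtc2, no other tested gene within 6 Mb on either side had an edgeR adjusted p under 0.05. As the choice of family used this contrast, the place of Tmtc2 on the threshold is not counted with these genes. Slc6a15, Ccdc59, Cep290 and Kitl, and the window itself, were chosen after their values were seen.

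**Figure D3:**
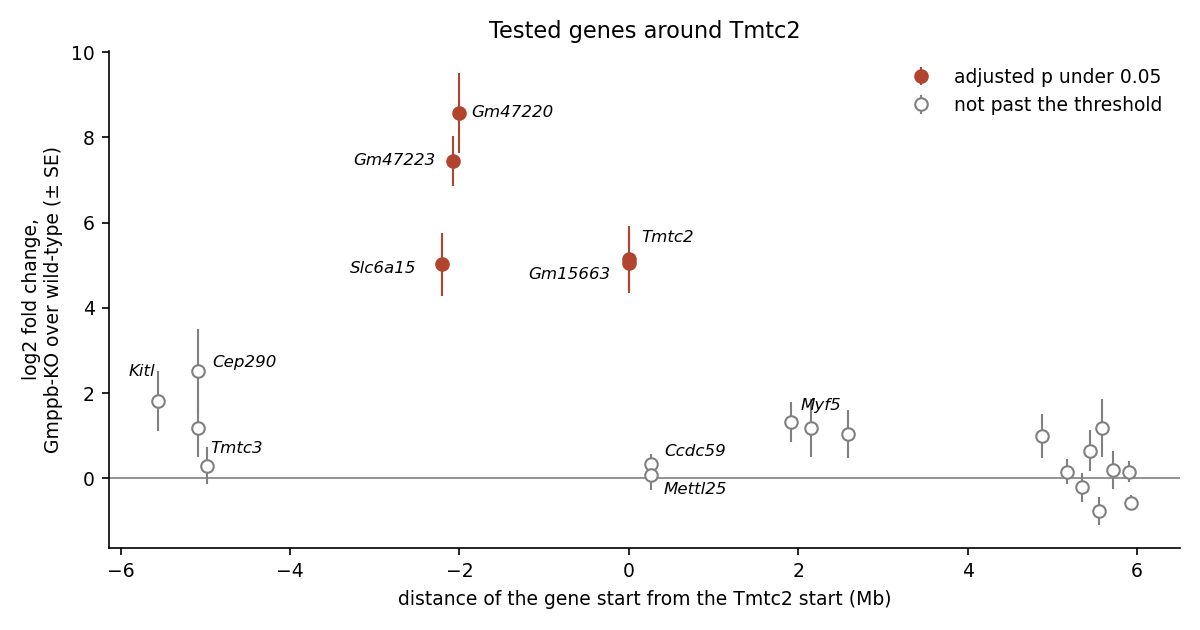
Tested genes within 6 Mb of Tmtc2. The x axis is the distance of each gene's start from that of Tmtc2 in Mb, negative toward lower coordinates and the 3′ end of Tmtc2, and the y axis the edgeR log2 fold change of Gmppb-KO over wild-type cells with its SE; filled points have an adjusted p under 0.05. Tmtc2 (5.15), Gm15663, Slc6a15 (5.02), Gm47223 and Gm47220 are the filled points. Tmtc2 is filled as a description only, since its family was chosen with this contrast known. Genes with wild-type counts of 0 are drawn at their fitted value, which is not a bound.

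Tmtc3 (ENSMUSG00000036676), on the same chromosome at 100443902 to 100487350 (8939 exon bases, minus strand), encodes an O-mannosyltransferase whose loss in humans is known to cause a brain cortex malformation. It had 5.54, 8.45 and 42.6 CPM in Gmppb-KO libraries, against 8.37, 7.82 and 8.83 CPM in wild-type libraries. Gmppb-KO replicate 1 was below all wild-type libraries, replicate 2 lay among them, and replicate 3 was 6.09 times the mean of the other two. Group means were 18.9 ± 20.6 CPM in Gmppb-KO and 8.34 ± 0.505 CPM in wild-type cells (SD, n = 3 each). The log2 fold change was 1.18 ± 0.69 (SE; 95% interval -0.40 to 2.76), and without Gmppb-KO replicate 3 it was -0.30.

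Tmtc3 starts back to back with Cep290, a gene of the ciliary transition zone, 5.09 Mb from the Tmtc2 start. Cep290 had 7, 35 and 204 reads in Gmppb-KO libraries, against 14, 11 and 9 reads in wild-type libraries, so it too was highest in Gmppb-KO replicate 3 (log2 fold change 2.51 ± 0.99 SE; edgeR adjusted p = 0.212). Without that library its log2 fold change was 0.68, and it was past the threshold without Gmppb-KO replicate 1 (2.94; edgeR adjusted p = 0.0477) and without the low-count filter. Kitl, the ligand of the Kit receptor, lies further along and had 71, 200 and 753 reads in Gmppb-KO libraries, against 99, 61 and 75 reads in wild-type libraries (log2 fold change 1.81 ± 0.70 SE; edgeR adjusted p = 0.202). Kitl had a log2 fold change of 0.60 without Gmppb-KO replicate 3, and was past the threshold without Gmppb-KO replicate 1 (2.18; edgeR adjusted p = 0.0384) and without the low-count filter. Replicate 3 was the highest Gmppb-KO library for Tmtc3 and Cep290, as for 71.3% of tested genes as long as the tested members. Nothing shared by Tmtc3 and Cep290 is read from this. The stretch between the Tmtc3 and Cep290 starts is shown because both genes are read away from it. It is 182 bases, chr10:100487366-100487547, given on the minus strand in GRCm38.p6, with its CCAAT box in capitals as read on the other strand.
Tmtc3: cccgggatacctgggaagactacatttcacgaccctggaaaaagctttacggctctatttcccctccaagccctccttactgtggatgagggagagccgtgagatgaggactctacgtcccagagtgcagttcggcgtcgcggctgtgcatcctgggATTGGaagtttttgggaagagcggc
A CCAAT box was present in 27.6% of promoter windows cut to this length. No CANNTG (54.4%), CAGCTG (10.0%) or GGGCGG (30.3%) was found here.

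Tmtc4 (ENSMUSG00000041594), on chromosome 14 at 122918971 to 122984035 (8280 exon bases, minus strand), is known from hearing loss in mice that lack it. It had 12.2, 13.5 and 21.8 CPM in Gmppb-KO libraries, against 6.05, 7.42 and 7.13 CPM in wild-type libraries. The lowest Gmppb-KO library was above the highest wild-type library. Means were 15.8 ± 5.17 CPM in Gmppb-KO and 6.87 ± 0.719 CPM in wild-type cells (SD, n = 3 each). The log2 fold change was 1.21 ± 0.31 (SE; 95% interval 0.50 to 1.92), or 2.31-fold, and 0.86 without Gmppb-KO replicate 3. Tmtc4 was not past the edgeR threshold and was past that of DESeq2, where 8.17% of 15845 genes were, 3.33% on the higher side. As the choice of family used this contrast, nothing is read from either. An antisense gene, 4930594M22Rik, shares 1582 exon bases with Tmtc4 and had 48 reads in all Gmppb-KO and 26 in all wild-type libraries.

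Tmtc1 (ENSMUSG00000030306; chromosome 6, 148232430 to 148444389, minus strand), the remaining member of the O-mannosyltransferase set, had 0, 3 and 0 reads in Gmppb-KO libraries and 0 in every wild-type library. A count of 3 corresponds to 0.141 to 0.168 CPM in Gmppb-KO and 0.175 to 0.202 CPM in wild-type libraries, so Tmtc1 was not detectable above that limit in either group and no fold is given.

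Read per length, the Tmtc transcripts were made up differently in Gmppb-KO and wild-type cells. Tmtc2 took 29.1%, 28.5% and 28.1% of the summed Tmtc FPKM in Gmppb-KO libraries, against 1.35%, 0.97% and 4.65% in wild-type libraries. The 3 Gmppb-KO shares were close together although replicate 3 held more of the Tmtc2, Tmtc3 and Tmtc4 transcripts than replicates 1 and 2. As a share of reads, Tmtc2 was 27.3% (Wilson 95% interval 23.4 to 31.6), 26.7% (23.1 to 30.6) and 25.9% (23.9 to 27.9) in Gmppb-KO libraries. In wild-type libraries it was 1.22% (0.416 to 3.52), 0.877% (0.241 to 3.14) and 4.21% (2.42 to 7.21). These intervals, like the limits for a count of 0, cover counting error only.

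The rest divided between Tmtc3 and Tmtc4. Tmtc3 held 21.0%, 26.0% and 46.4% of the Tmtc FPKM in Gmppb-KO libraries, against 55.4%, 48.9% and 50.9% in wild-type libraries. Tmtc4 held 50.0%, 45.0% and 25.6% in Gmppb-KO libraries, against 43.3%, 50.1% and 44.4% in wild-type libraries. Tmtc4 was the larger of this pair in Gmppb-KO replicates 1 and 2, and Tmtc3 in replicate 3. The 4 Tmtc genes summed to 2.94, 3.53 and 9.81 FPKM in Gmppb-KO libraries, against 1.72, 1.86 and 1.93 FPKM in wild-type libraries, without overlap.

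**Figure D4:**
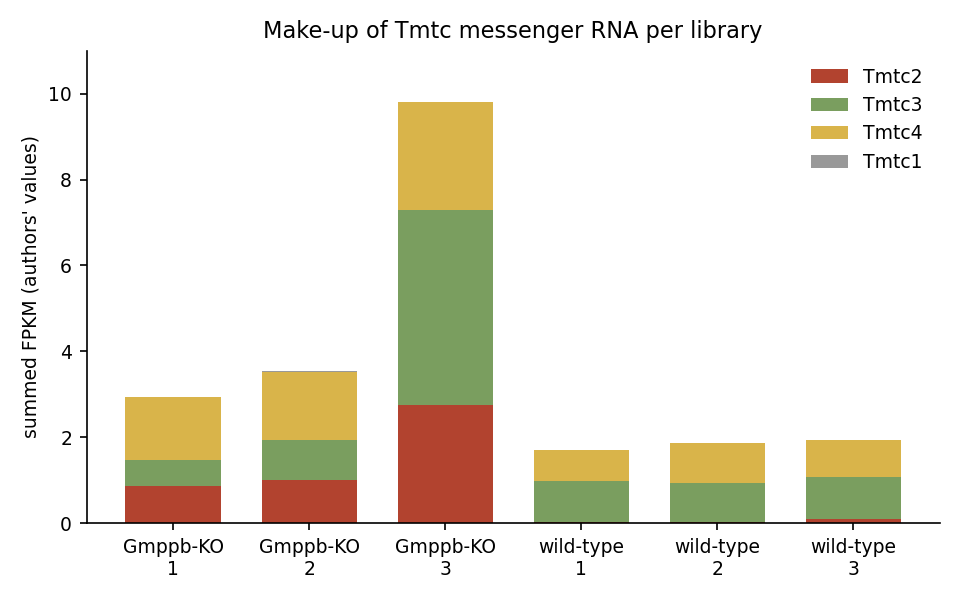
Summed level of the Tmtc transcripts in each library. The y axis is the authors' FPKM, stacked by gene, with 3 Gmppb-KO libraries left of 3 wild-type libraries. Tmtc2 (red) is 28.1% to 29.1% of each Gmppb-KO bar and 0.97% to 4.65% of each wild-type bar, Gmppb-KO replicate 3 reaches 9.81 FPKM, and Tmtc1 is too low to be seen.

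Dpy19l1 (ENSMUSG00000043067; chromosome 9, 24411776 to 24503140, minus strand, 6350 exon bases) encodes a C-mannosyltransferase and was the most abundant member per length. It had 22.6, 29.3 and 50.5 CPM in Gmppb-KO libraries, against 36.0, 26.6 and 47.5 CPM in wild-type libraries. The groups overlapped fully, with replicate 3 the highest of both. Means were 34.1 ± 14.6 CPM in Gmppb-KO and 36.7 ± 10.5 CPM in wild-type cells (SD, n = 3 each). The log2 fold change was -0.10 ± 0.34 (SE; 95% interval -0.89 to 0.68), and -0.55 without Gmppb-KO replicate 3.

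Dpy19l3 (ENSMUSG00000043671; chromosome 7, 35685165 to 35754454, minus strand, 11367 exon bases) encodes the other well-described C-mannosyltransferase. It had 23.0, 18.0 and 27.8 CPM in Gmppb-KO libraries, against 20.8, 16.2 and 22.2 CPM in wild-type libraries, with overlap. Means were 22.9 ± 4.89 CPM in Gmppb-KO and 19.7 ± 3.15 CPM in wild-type cells (SD, n = 3 each). The log2 fold change of 0.22 ± 0.25 (SE; 95% interval -0.37 to 0.80) became 0.01 without Gmppb-KO replicate 3. Its interval leaves room for a change of either sign.

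Dpy19l4 (ENSMUSG00000045205; chromosome 4, 11261315 to 11322137, minus strand, 8101 exon bases) belongs to the family by sequence. It had 9.84, 10.5 and 25.4 CPM in Gmppb-KO libraries, against 11.9, 9.24 and 9.12 CPM in wild-type libraries. Gmppb-KO replicates 1 and 2 lay within the wild-type range and replicate 3 at 2.5 times their mean. Group means were 15.2 ± 8.80 CPM in Gmppb-KO and 10.1 ± 1.59 CPM in wild-type cells (SD, n = 3 each). The log2 fold change was 0.59 ± 0.40 (SE; 95% interval -0.33 to 1.52), and -0.04 without Gmppb-KO replicate 3. Dpy19l2 (ENSMUSG00000085576; chromosome 9, 24557047 to 24696293, minus strand), known for its part in sperm head formation in mice and humans, had 0 reads in all 6 libraries. The Dpy19l genes summed to 6.76, 7.27 and 12.9 FPKM in Gmppb-KO libraries, against 9.10, 7.02 and 10.5 FPKM in wild-type libraries, with overlap.

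Per length, some neighbours in the wild-type order overlapped and others did not. Dpy19l1 led with 5.85 ± 1.55 FPKM, followed by Dpy19l3 with 1.76 ± 0.246 and Dpy19l4 with 1.27 ± 0.199 FPKM (SD, n = 3), whose ranges overlapped. Tmtc3 at 0.948 ± 0.0362 FPKM and Tmtc4 at 0.844 ± 0.0961 FPKM came next and also overlapped, and Tmtc2 stood apart at 0.0437 ± 0.04 FPKM. In Gmppb-KO cells Dpy19l1 again led with 5.2 ± 2.11 FPKM. Tmtc3 (2.03 ± 2.19 FPKM), Dpy19l3 (1.96 ± 0.399), Tmtc4 (1.85 ± 0.568), Dpy19l4 (1.82 ± 1.02) and Tmtc2 (1.54 ± 1.06) followed, each overlapping its neighbour in the order. In bulk RNA, fewer cells with a transcript and less of it per cell cannot be told apart.

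By likeness over the 6 libraries, the genes with the highest Pearson correlation with Tmtc2 in log2 CPM, among 11948 genes, were Edem1 (r = 0.9995), Stxbp6 (r = 0.9978) and Fstl1 (r = 0.9973). The points share genotype and library, so these values are descriptive. Edem1, which helps direct misfolded glycoproteins to degradation, had 80.3, 81.7 and 102 CPM in Gmppb-KO libraries, against 41.5, 39.4 and 50.0 CPM in wild-type libraries. Fstl1, a secreted glycoprotein, had 541, 536 and 743 CPM in Gmppb-KO libraries, against 162, 149 and 215 CPM in wild-type libraries. Stxbp6, a syntaxin-binding protein gene, had 1.63, 2.13 and 4.95 CPM in Gmppb-KO libraries, against 0, 0 and 0.117 CPM in wild-type libraries. In all 3 genes replicate 3 was the highest library of its genotype, as it was for Tmtc2.

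Genes that make the shared mannose donor did not pass the edgeR threshold, which 5.59% of all tested genes passed. All 14 genes that supply GDP-mannose and its dolichol-linked form were tested, with 0 past the edgeR threshold, 2 at an unadjusted p under 0.05, 1 lower by DESeq2, 0 by limma voom, and a median log2 fold change of -0.11. Dpm3, the subunit that tethers the dolichol-phosphate mannose synthase, averaged 20.9 ± 9.52 CPM in Gmppb-KO and 53.1 ± 30.5 CPM in wild-type cells (SD, n = 3 each; log2 fold change -1.35 ± 0.50 SE; edgeR adjusted p = 0.189). It was the gene called lower by DESeq2 (adjusted p = 0.0454), and edgeR called it without the low-count filter (adjusted p = 0.00437) and with the replicate block (adjusted p = 0.00628); over 14 alternatives the adjusted p ran from 0.00437 to 0.538. Nus1, a subunit of the enzyme that builds the dolichol chain, averaged 74.2 ± 37.4 CPM in Gmppb-KO and 40.7 ± 4.84 CPM in wild-type cells (log2 fold change 0.87 ± 0.35 SE; edgeR adjusted p = 0.216). Of 11 other genes for mannosyltransferases that use the donor, or for their subunits, 10 were tested. By edgeR, DESeq2 or limma voom 0 passed, and 0 had an unadjusted edgeR p under 0.05. Their median log2 fold change was 0.05. Pigm, which adds the first mannose of the GPI anchor, had a log2 fold change of 0.58 ± 0.38 (SE; edgeR adjusted p = 0.399), and Alg3, which adds the first lumenal mannose of the N-glycan precursor, one of -0.26 ± 0.27 (SE; edgeR adjusted p = 0.586).

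**Figure D5:**
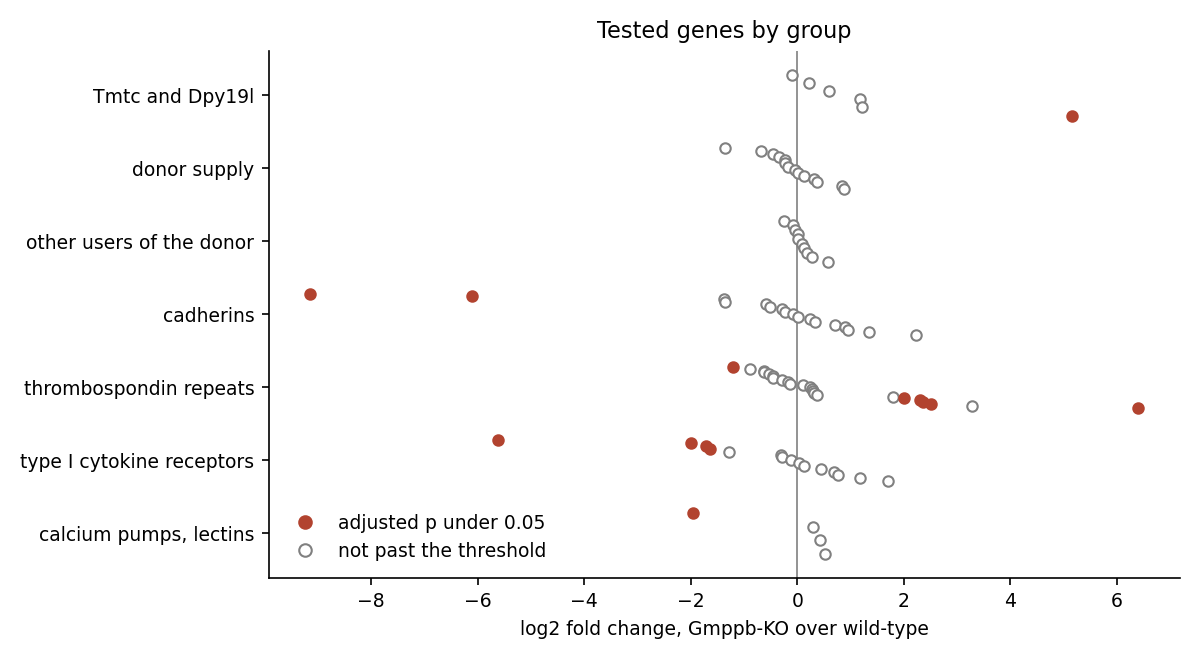
Tested genes of the Tmtc and Dpy19l family, of mannose supply and use, and of known acceptor and partner groups. The x axis is the edgeR log2 fold change of Gmppb-KO over wild-type cells; each point is 1 gene, filled where the adjusted p is under 0.05, and points are spread vertically only for legibility. No filled point lies among the 14 supply genes or the 10 tested other users of the donor; genes with a group at or near 0 reads are drawn at their fitted value, which is not a bound.

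The cadherins and protocadherins listed here, from the families that accept TMTC-linked mannose, were mostly too low to test in these cells. The list holds no gene of the clustered protocadherins (Pcdha, Pcdhb and Pcdhg genes), so it does not cover them. Of 59 genes, 17 were tested and 2 (11.8%, against 5.59% of all tested genes) passed, both lower in Gmppb-KO cells. The median log2 fold change was -0.09, against 0.11 over all tested genes. DESeq2 called 2 higher and 3 lower. Cdh11, a mesenchymal cadherin, had 0 reads in Gmppb-KO cells and 196 in wild-type cells, at least 77.0-fold lower against 3 reads over the Gmppb-KO group (edgeR adjusted p = 0.0034). Cdhr1, known as a photoreceptor cadherin, had 1 read in Gmppb-KO and 82 in wild-type cells (ratio of wild-type over Gmppb-KO 96.6, counting interval 16.9 to 3863; edgeR adjusted p = 0.00343). Cdh15, the muscle cadherin, averaged 275 ± 54.2 CPM in Gmppb-KO and 413 ± 32.7 CPM in wild-type cells (edgeR adjusted p = 0.188). Cdh2, the neural cadherin also found on myoblasts, averaged 30.7 ± 16.3 CPM in Gmppb-KO and 26.1 ± 6.22 CPM in wild-type cells (edgeR adjusted p = 0.717). These last 2 genes were chosen after their values were seen.

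Genes for thrombospondin type 1 repeat proteins, acceptors of C-linked mannose, differed in both directions. Of 57 genes, 23 were tested, 5 rose and 1 fell (26.1%, against 5.59% of all tested genes). The median log2 fold change was 0.24, against 0.11 over all tested genes. The number past the threshold was 8 without Gmppb-KO replicate 3, 3 without wild-type replicate 1 and 2 without wild-type replicate 2. Adamts2, a procollagen N-proteinase, averaged 49.8 ± 7.20 CPM in Gmppb-KO and 12.4 ± 2.42 CPM in wild-type cells (SD, n = 3 each). Its log2 fold change was 2.01 ± 0.24 (SE; edgeR adjusted p = 0.00261). Rspo2, an enhancer of Wnt signalling, had 336 reads in Gmppb-KO and 3 in wild-type cells (ratio 95, counting interval 32.2 to 463; edgeR adjusted p = 0.0034). Adamts1, an extracellular matrix protease, averaged 30.0 ± 17.2 CPM in Gmppb-KO and 5.87 ± 1.80 CPM in wild-type cells (edgeR adjusted p = 0.0179), and was not past the threshold without wild-type replicate 1 or 2. Cilp2, a cartilage matrix protein gene, averaged 2.91 ± 0.393 CPM in Gmppb-KO and 0.509 ± 0.284 CPM in wild-type cells (edgeR adjusted p = 0.0221). Its call was lost without Gmppb-KO replicate 1 or 2 or wild-type replicate 2 or 3.

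The last 2 calls in this set, named after their values were seen, were Adamts5 and Spon2. Adamts5, an aggrecanase, averaged 31.8 ± 22.6 CPM in Gmppb-KO and 6.42 ± 1.28 CPM in wild-type cells (edgeR adjusted p = 0.03), and lost its call without any one of the wild-type replicates, by limma voom and with total counts only. Spon2, a secreted matrix protein gene, was the gene that fell, to 8.09 ± 1.37 CPM in Gmppb-KO against 18.6 ± 3.49 CPM in wild-type cells (edgeR adjusted p = 0.0422). It lost its call in each leave-one-out fit but that without Gmppb-KO replicate 3, and with total counts only.

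Type I cytokine receptors, the other C-mannosylated group, had 15 of 27 genes tested, 0 higher and 4 lower (26.7%). Over all tested genes 5.59% passed, 2.32% higher and 3.27% lower. The median log2 fold change was -0.12, against 0.11 over all tested genes. Il27ra, a receptor chain for interleukin 27, had 1 read in Gmppb-KO and 58 in wild-type cells (ratio of wild-type over Gmppb-KO 68.4, counting interval 11.8 to 2746; edgeR adjusted p = 0.00641). Epor, the erythropoietin receptor, averaged 0.967 ± 0.197 CPM in Gmppb-KO and 3.87 ± 0.565 CPM in wild-type cells (edgeR adjusted p = 0.0188), and lost its call without Gmppb-KO replicate 2 or wild-type replicate 1. Il2rg, the common gamma chain, averaged 3.76 ± 1.31 CPM in Gmppb-KO and 11.7 ± 0.945 CPM in wild-type cells (edgeR adjusted p = 0.0298), and lost its call with total counts only and without Gmppb-KO replicate 2 or any one of the wild-type replicates.

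Of 5 calcium pumps and lectin chaperones of the endoplasmic reticulum, 4 were tested and 1 (25.0%, against 5.59% of all tested genes) passed. The median log2 fold change was 0.37, against 0.11 over all tested genes. The gene that passed was Atp2a1, the pump of fast skeletal muscle, which averaged 1.21 ± 0.051 CPM in Gmppb-KO and 4.70 ± 1.87 CPM in wild-type cells (edgeR adjusted p = 0.03). Its call was lost with total counts only and without Gmppb-KO replicate 1 or 2 or wild-type replicate 1 or 3. The other tested genes, Atp2a2, Canx and Calr, were higher on average in Gmppb-KO cells and did not pass. Their log2 fold changes were 0.30 ± 0.27, 0.52 ± 0.23 and 0.43 ± 0.22 (SE, edgeR adjusted p = 0.523, 0.255 and 0.315). These genes were named after their values were seen. Of the 7 myoblast markers given above, 4 were lower in Gmppb-KO cells, as Atp2a1 was, while the mean of Myf5 was higher. The summed marker levels overlapped between genotypes. What these markers have to do with the Atp2a1 level was not tested.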

How the data were processed

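Total RNA from 3 Gmppb-KO and 3 wild-type samples of C2C12 cells was sequenced, with groups and replicate numbers from the sample titles. The authors deposited 1 table. Its counts per gene are whole reads, not normalized, and its FPKM columns are the authors' values per kilobase and library size, per the file headers. The authors' annotated gene length in bases is another value of the deposited table. Per the submitters' processing notes, build mm10 and the tools HISAT2, featureCounts of Subread, FastQC and DESeq2 were used; the annotation release and strand setting were not given in the sources used here. Loci without a gene name (201, with 0.0699% to 0.195% of counts) were left out. Counts were fitted with edgeR 4.0.16 (TMM, filterByExpr with a minimum count of 10, quasi-likelihood test, 2-sided, group only) over all 12786 genes that passed, with Benjamini-Hochberg adjustment and a threshold of 0.05; log2 CPM used a prior count of 2. The script was tested on simulated data. Alternatives were DESeq2 1.42.0, limma 3.58.1 voom, other scalings and filters, the replicate block, leaving out each library and, added after seeing the data, removal of gene length and GC trends. The members and lists were chosen with earlier results of these data known. Named genes were all members, Gmppb and Myod1, up to 4 called genes per list with the smallest adjusted p (2 by unadjusted p where none was called), the 2 nearest tested genes on each side of a called member, and the 3 genes most like it with a mean of at least 1 CPM; exceptions are stated beside their values, and 1 named gene is not reported here. Promoter sequences and motif shares are from RefSeq on GRCm38.p6, where 7 of 8 members had an entry; exon overlaps are from GENCODE, whose coordinates of the members were the same as the file's.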

Additional observations from a re-analysis of the deposited data

How the results depend on the processing

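The count of 715 genes became 1295 with DESeq2, 1419 without the low-count filter, 1618 with the replicate block and 1210 with length and GC trends removed, an alternative chosen after seeing the data; leaving out 1 library gave 331 (wild-type replicate 1) to 749, with 444 without wild-type replicate 2 and 397 without Gmppb-KO replicate 2. Same-numbered libraries of the 2 genotypes had correlations of -0.179, 0.508 and 0.42 in their deviations from the group means. Different-numbered libraries had correlations of -0.544 to 0.294. The same-numbered values for replicates 2 and 3 lay above that range and the value for replicate 1 within it. Whether the numbers pair the libraries cannot be told from this. Tmtc4, whose family was chosen on this contrast so that no support is drawn from it, moved past the threshold with DESeq2 (log2 fold change 1.14), without the filter (1.13), with the replicate block (1.17) and with trends removed (0.90). Direction changed for Dpy19l1 with total counts only (0.07), which also moved the median of all genes to 0.27 against 0.11, and for Dpy19l3 with trends removed (-0.14). Leaving out 1 library gave -0.30 to 1.53 for Tmtc3, -0.55 to 0.04 for Dpy19l1 and -0.04 to 0.81 for Dpy19l4. The mean Tmtc2 share of Tmtc reads in Gmppb-KO cells was 26.6% without the length correction, against 28.6% of counts per length. Calls among supply genes were 1 with DESeq2, 1 without the filter and 1 with the block, Dpm3 in each. Cadherin calls were 5, 5 and 4 under these, and 4 with trends removed. Thrombospondin repeat calls were 10 without the filter and 10 with trends removed, and 2 (without wild-type replicate 2) to 8 over leave-one-out fits, with 3 without wild-type replicate 1. Cytokine receptor calls were 6 with DESeq2 and 6 without the filter, 1 higher and 5 lower in each, and over leave-one-out fits ran from 1 (without wild-type replicate 1) to 5, with 2 without Gmppb-KO replicate 2 or wild-type replicate 2. The calcium pump call was 0 with total counts only and 0 to 1 over leave-one-out fits. Among other genes, direction changed with trends removed for Pigm (-0.02), Alg3 (0.04) and Cdh2 (-0.30), for Mettl25 with DESeq2 size factors in edgeR (-0.01) and without the filter (-0.01), and over leave-one-out fits, which ran from -0.30 to 0.24 for Mettl25 and from -0.34 to 0.47 for Cdh2. The causes were not tested. Depth limits what can be said of Tmtc1, Dpy19l2 and wild-type Tmtc2.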
